A study of Mus musculus with 25 samples.

Results

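Histones, the proteins that DNA is wound around, carry methyl and acetyl groups that are written and erased by dedicated enzymes. Lysine methyltransferases (Kmt, Setd, Ehmt and Ezh genes) and arginine methyltransferases (Prmt) add methyl groups, lysine demethylases (Kdm) remove them, and the deacetylases (Hdac) and sirtuins (Sirt) remove acetyl groups, the sirtuins with NAD+ as a cofactor. These enzymes set which genes are open to transcription, and several of them use metabolites whose supply changes with feeding. Here the DNA methylation of the genes that encode them was read in mouse mammary fat pads after obesity and weight loss. The genes were chosen by name alone, as every autosomal Kdm, Kmt, Setd, Hdac, Sirt, Ehmt, Ezh or Prmt gene in the deposited table; 3 further genes with such names lay on the X chromosome and were left out.

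The table listed CpG sites for 51 such genes. In 50 of them 1016 CpGs had an average coverage of at least 10 reads, out of 251026 such autosomal CpGs in all. Of these 1016, 571 CpGs in 37 genes also had a value in at least 3 mice of each of the Control, LFD, LFCR, MCR and ICR groups and were tested, as part of 126006 tested CpGs. The tested sites lay in gene bodies (427 CpGs in 33 genes), in promoter features (88 CpGs in 23 genes, of which 80 were annotated to a 1st exon and 8 to a 5′UTR) and in 3′UTRs (56 CpGs in 9 genes). The average coverage of the tested sites had a median of 63.9 reads, with quartiles of 43.3 and 99.6 reads. Ezh1, Hdac2, Kdm1b, Kdm5a, Kmt2e, Prmt3, Prmt5, Prmt6, Prmt7, Setd2, Setd3, Sirt1, Sirt3 and Sirt5 had no tested CpG. Where a gene had at least 3 tested CpGs in its promoter features or in its body, these were averaged to a promoter level or a body level per mouse, here called a unit. This gave 10 promoter units and 24 body units in 24 genes, out of 8133 units over all genes. Promoter here stands for the annotated features, and such CpGs can lie well inside a gene, as in Hdac5 and Hdac7. The promoter CpGs of Kdm2b were spread over chr5:122888663-122989266, and those of Setd1a over chr7:127777248-127799462.

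The assay, reduced representation bisulfite sequencing (RRBS), sequences short MspI fragments, here of 40 to 170 bp. All mice were C57BL/6N of wild-type genotype, received E0771 mouse mammary cancer cells in the 4th mammary fat pad 25 weeks after the first allocation to a diet, and gave DNA from the uninjected 9th pad at the endpoint. MCR mice (3 libraries used) were made obese on the D12492 diet with 60% fat and then lost weight on a Mediterranean-style diet with 30% calorie restriction. After the same obesity, LFCR mice (4) ate a low-fat diet with 30% calorie restriction, LFD mice (3 used) an unrestricted low-fat diet and ICR mice (5) an intermittently restricted diet, while the Obese mice (1 used) stayed obese. Control mice (5) ate the D12450J diet throughout. The sample titles contain the word tumor and a tag names a mammary cancer cell type, whereas the tissue label is normal contralateral mammary tissue; the labels name no age, sex, batch or pairing. Since only 1 Obese library was used, past obesity and the later diet cannot be told apart in any comparison with Control. The DNA came from whole tissue, so a change in methylation within cells and a change in the mix of cells cannot be told apart.

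Another 4 libraries stood apart and were set aside, 3 of Obese mice and 1 of an LFD mouse. At member CpGs with a Control level under 5% they averaged 48.8% to 52.0% methylation, against 0.534% to 1.14% in the 21 libraries used. At member CpGs over 90% in Control they averaged 87.7% to 93.8%, against 83.8% to 94.5%. With them in the fit, 12 member units were called in MCR against Control and 2 in LFCR against Control. The share over all units was not taken in that fit.

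A few promoter stretches show sites just upstream of a RefSeq start, with and without a change. The larger promoter results, in Hdac5 and Hdac7, lay outside the sequences at hand. Only 6 of the 37 genes had a tested CpG upstream of a RefSeq start within the promoter windows at hand, with 14 CpGs in all, and only in Prmt8, an arginine methyltransferase known for its expression in the brain, did any of them pass the test. Each stretch holds 26 bases from RefSeq (GRCm38.p6), 5′ to 3′ on the strand of the gene, with the measured CpG in capitals. The 3 Prmt8 stretches are on the minus strand of chromosome 6. Those at chr6:127769371-127769396 and chr6:127769323-127769348 surround CpGs that were lower in MCR mice, 229 and 181 bases upstream of the start, and that at chr6:127769260-127769285 surrounds one that stayed low in every group, 118 bases upstream. For comparison, the stretches of Setd1a (chr7:127777236-127777261, plus strand) and Ehmt2 (chr17:34898771-34898796, plus strand) surround upstream CpGs that were nearly unmethylated. The shown CpGs of Prmt8 were annotated to a 1st exon, that of Setd1a to the 5′UTR and that of Ehmt2 to the body. The RefSeq loci of Prmt8 (up to chr6:127769467) and Ehmt2 (from chr17:34898463) reach past these CpGs. In these genes the CpGs thus lie upstream of the start used but inside the locus.
Prmt8, 229 bases upstream: acgcctgcttccCGgagcctggcgcg
Prmt8, 181 bases upstream: ccctagcccccgCGccaggtgtgcgc
Prmt8, 118 bases upstream: accccgcggtccCGggcacgggggcg
Setd1a, 141 bases upstream: ctcgcagggcgcCGgccgaggcaagg
Ehmt2, 187 bases upstream: gcaccgcgacccCGggagcccgcgcg

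At the first of these Prmt8 CpGs methylation averaged 0.962% in MCR mice and 5.77% in Control mice (adjusted p = 0.0430, limma with Benjamini-Hochberg adjustment over all CpGs). At the CpG 181 bases upstream it was 4.24% in MCR mice and 17.3% in Control mice (adjusted p = 0.0132), and at a CpG between them, 200 bases upstream, 3.03% in MCR mice and 15.5% in Control mice (adjusted p = 0.00504). The CpG 118 bases upstream had 1.52% in MCR mice and 0.938% in Control mice. The comparison CpG of Setd1a was listed at 0% in MCR mice and averaged 0.392% in Control mice, and that of Ehmt2 was listed at 0% in MCR mice and averaged 0.227% in Control mice. Partly methylated and nearly unmethylated CpGs thus lay side by side upstream of the RefSeq start used for Prmt8.

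The histone enzyme genes were less methylated in MCR mice than in Control mice, and so was the rest of the genome that was read. Over the 454 member CpGs measured in all 21 libraries, methylation averaged 50.2% ± 0.456 in MCR mice (SD, n = 3), 54.6% ± 4.55 in LFCR mice (n = 4), 56.5% ± 3.61 in LFD mice (n = 3), 58.4% ± 1.98 in ICR mice (n = 5), 60.2% in the Obese mouse and 62.6% ± 1.95 in Control mice (n = 5). The 3 MCR mice stood at 50.7%, 49.8% and 50.2% and the LFCR mice at 49.97%, 51.7%, 57.2% and 59.7%, while Control mice ranged between 60.3% and 65.6%. Every MCR and LFCR mouse was thus below every Control mouse, and the LFCR mice fell into a pair near the MCR mice (numbers 63 and 67) and a pair near the ICR mice (69 and 72). Over the 93945 CpGs of the whole table measured in all 21 libraries, the means were 46.9% ± 0.354 in MCR mice, 50.2% ± 3.89 in LFCR mice, 51.9% ± 3.21 in LFD mice, 53.2% ± 1.49 in ICR mice, 54.7% in the Obese mouse and 56.3% ± 1.54 in Control mice. The order of the groups was the same in members and in the whole table. In the Mediterranean-style group the gap to Control was widest at 51 member CpGs in 3′UTRs (52.0% in MCR mice, 80.7% in Control mice), against 54.4% in MCR mice and 64.7% in Control mice at 335 body CpGs, and 28.4% in MCR mice and 38.9% in Control mice at 68 promoter CpGs.

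In MCR against Control, 22 of the 34 units were lower and none was higher at an adjusted p under 0.05 (limma, adjusted over all 8133 units). This is 64.7% of the members' units, while 56.3% of all units were lower and 4.3% were higher. Members' promoters had 5 of 10 units lower (45.2% of all promoter units) and members' bodies 17 of 24 (61.9% of all body units). The median difference, as MCR minus Control, was −7.10 percentage points over the members' units and −6.69 points over all units. In 20 of the 34 units every MCR mouse lay below every Control mouse, as in 52.9% of all units. By these shares the group as a whole was close to the genome background, and the single genes differed widely.

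**Figure D1:**
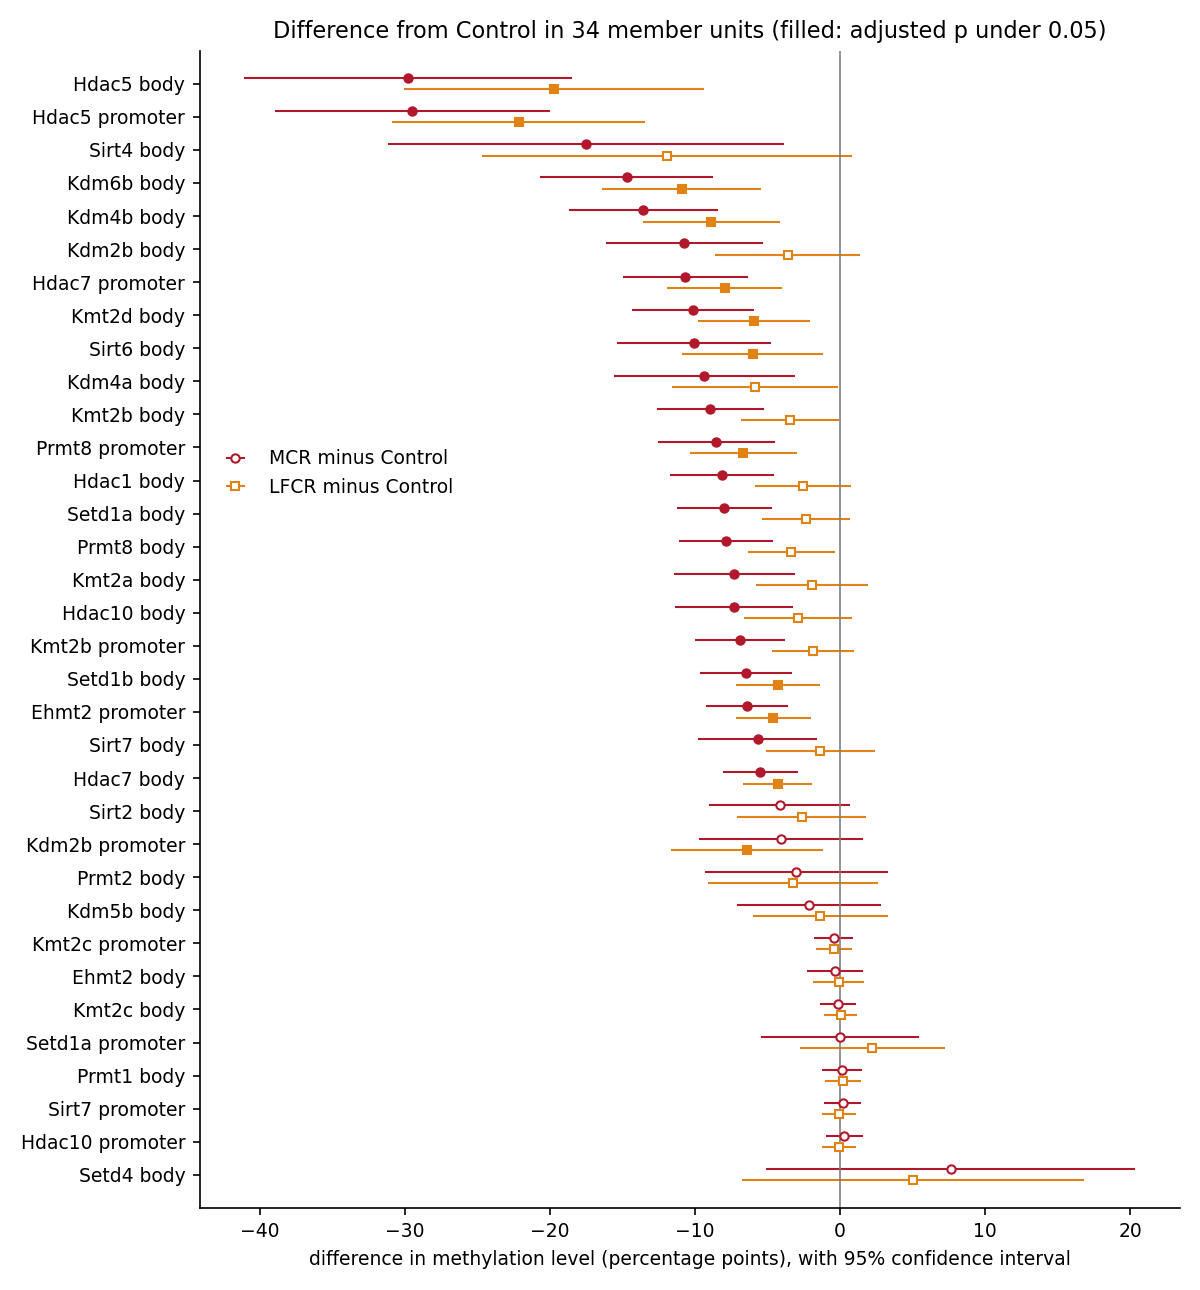
Difference in methylation from Control, in percentage points with 95% confidence intervals, for the 34 promoter and body units of histone enzyme genes in MCR and LFCR mice; filled points passed the test. The promoter and body of Hdac5 lie farthest to the negative side in both groups, followed by Sirt4 with a wide interval and Kdm6b, and 22 units were called in MCR and 12 in LFCR.

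Because every mouse has its own average level, the units were also compared after each mouse was centred on its own mean. The mean over all units lay 7.46 points below Control in MCR mice, 4.89 points below in LFCR mice, 3.47 in LFD mice, 2.43 in ICR mice and 1.23 in the Obese mouse. After this shift was taken out, 5 members' units were lower in MCR mice (23.1% of all units) and 7 were higher (29% of all units). The 5 that were lower beyond the shift were the body of Hdac5 (−22.3 points), the promoter of Hdac5 (−22.03), the body of Kdm6b (−7.26), the body of Kdm4b (−6.10) and the body of Kmt2d (−2.69), with adjusted p between 0.000668 and 0.0400. The 7 that were higher relative to the shift were units whose uncentred levels differed little from Control, namely the promoters of Hdac10, Sirt7, Kmt2c and Setd1a and the bodies of Prmt1, Kmt2c and Ehmt2. Apart from the Setd1a promoter and the Ehmt2 body, these averaged only 0.265% to 0.682% in Control mice. Such units could not fall by 7.46 points, so centring alone set them above Control. The shift is a mean over units of every level, so the 5 lower units were not compared with units of like level. Over all CpGs at 50% to 90% in Control mice, the median difference in MCR mice was −13.7 points before centring. The bodies of Kdm6b, Kdm4b and Kmt2d averaged 64.5%, 74.6% and 73.9% in Control mice. In MCR mice they averaged 49.8%, 61.0% and 63.8%. The other 17 units called lower without centring were thus not called relative to the shift, and 7 of them, the promoters of Kmt2b and Ehmt2 and the bodies of Kmt2a, Hdac10, Setd1b, Sirt7 and Hdac7, had a centred difference above 0.

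Among the deacetylases Hdac5 had the largest differences. It is a class IIa gene, like Hdac7, and these encode enzymes that shuttle between nucleus and cytoplasm under the control of signalling kinases. All 4 measured units of the class were lower in MCR mice (56.3% of all units) and in LFCR mice (36.6% of all units). These were the promoters and bodies of 2 genes, Hdac5 and Hdac7. In each gene promoter and body CpGs lie together in a stretch, so its promoter and body units are not wholly separate. The median over these 4 units, −20.1 points in MCR mice and −13.9 points in LFCR mice, lay between the large differences of Hdac5 and the smaller ones of Hdac7, whose body differed by −5.50 points in MCR mice (1.96 relative to the shift). Hdac4 and Hdac9, of the same class, had too few tested CpGs for a unit. The single 3′UTR CpG of Hdac4, chr1:91929257, averaged 64.0% in MCR mice (n = 3) and 88.6% in Control mice (n = 4), a difference of −24.6 points (adjusted p = 0.00463).

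Hdac5 (chromosome 11, minus strand, mm10) had 16 tested CpGs in features annotated as 1st exon and 29 in its body. The promoter level was 4.70%, 1.44% and 3.96% in the MCR mice, 1.79%, 5.09%, 14.7% and 21.1% in the LFCR mice, and 9.23%, 20.5% and 22.1% in the LFD mice. It was between 10.4% and 25.0% in ICR mice, 24.8% in the Obese mouse, and 31.5%, 43.6%, 31.9%, 26.5% and 30.8% in the Control mice. Every mouse that had been obese lay below every Control mouse, with the 3 MCR mice and LFCR mice 63 and 67 close to unmethylated. The mean was 3.37% ± 1.71 in MCR mice (SD, n = 3) and 32.9% ± 6.38 in Control mice (n = 5), a difference of −29.5 points (SE 4.48, adjusted p = 0.000528). In LFCR mice the difference from Control was −22.2 points (SE 4.12, adjusted p = 0.0123). The body of Hdac5 was lower by a like amount, at 29.5%, 26.0% and 28.7% in MCR mice against 50.2% to 69.7% in Control mice, a difference of −29.8 points (SE 5.34, adjusted p = 0.000558).

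Much of the change in Hdac5 lay in particular stretches of the gene. These were delimited after the values were seen as runs of at least 5 tested CpGs with gaps of at most 500 bases. The largest one, chr11:102224577-102225180, held 23 CpGs, 11 annotated to a 1st exon and 12 to the body, and 18 of them in a CpG island. It lay 4.99 to 5.60 kb downstream of the RefSeq start of Hdac5, inside the gene and not at that start. The level over these 23 CpGs was 7.27%, 3.01% and 7.09% in MCR mice, 5.14%, 7.80%, 24.4% and 34.1% in LFCR mice, and 46.8%, 62.0%, 46.2%, 37.3% and 44.4% in Control mice. All 23 CpGs were called lower in MCR mice and 20 in LFCR mice. LFD mice had 11.1%, 33.9% and 29.9%, ICR mice 18.8% to 35.9% and the Obese mouse 41.4%, so that the Obese mouse lay within the Control range and every mouse of the 4 diet groups below it. The remaining 1st exon CpGs, 5 sites at chr11:102218472-102218886, were little methylated in every group, with 2.66% in MCR mice and 3.07% in Control mice and no call. A stretch of 6 body CpGs at chr11:102215591-102215745 averaged 28.9% in MCR mice, 36.2% in LFCR mice and 62.7% in Control mice, and all 6 were called in MCR mice. Body CpGs outside these stretches differed too. At 30.1 and 30.2 kb from the start they averaged 29.9% and 30.0% in MCR mice and 68.9% and 71.9% in Control mice. At 9.87 kb the means were 54.2% in MCR mice and 80.4% in Control mice. Of all 29 body CpGs, 25 were called lower in MCR mice (35.3% of all body CpGs) and none higher (4.66% of all CpGs). The single member CpG with the largest difference, chr11:102224967 in Hdac5, averaged 3.60% in MCR mice and 58.1% in Control mice, a difference of −54.5 points (SE 8.07, adjusted p = 0.000768).

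**Figure D2:**
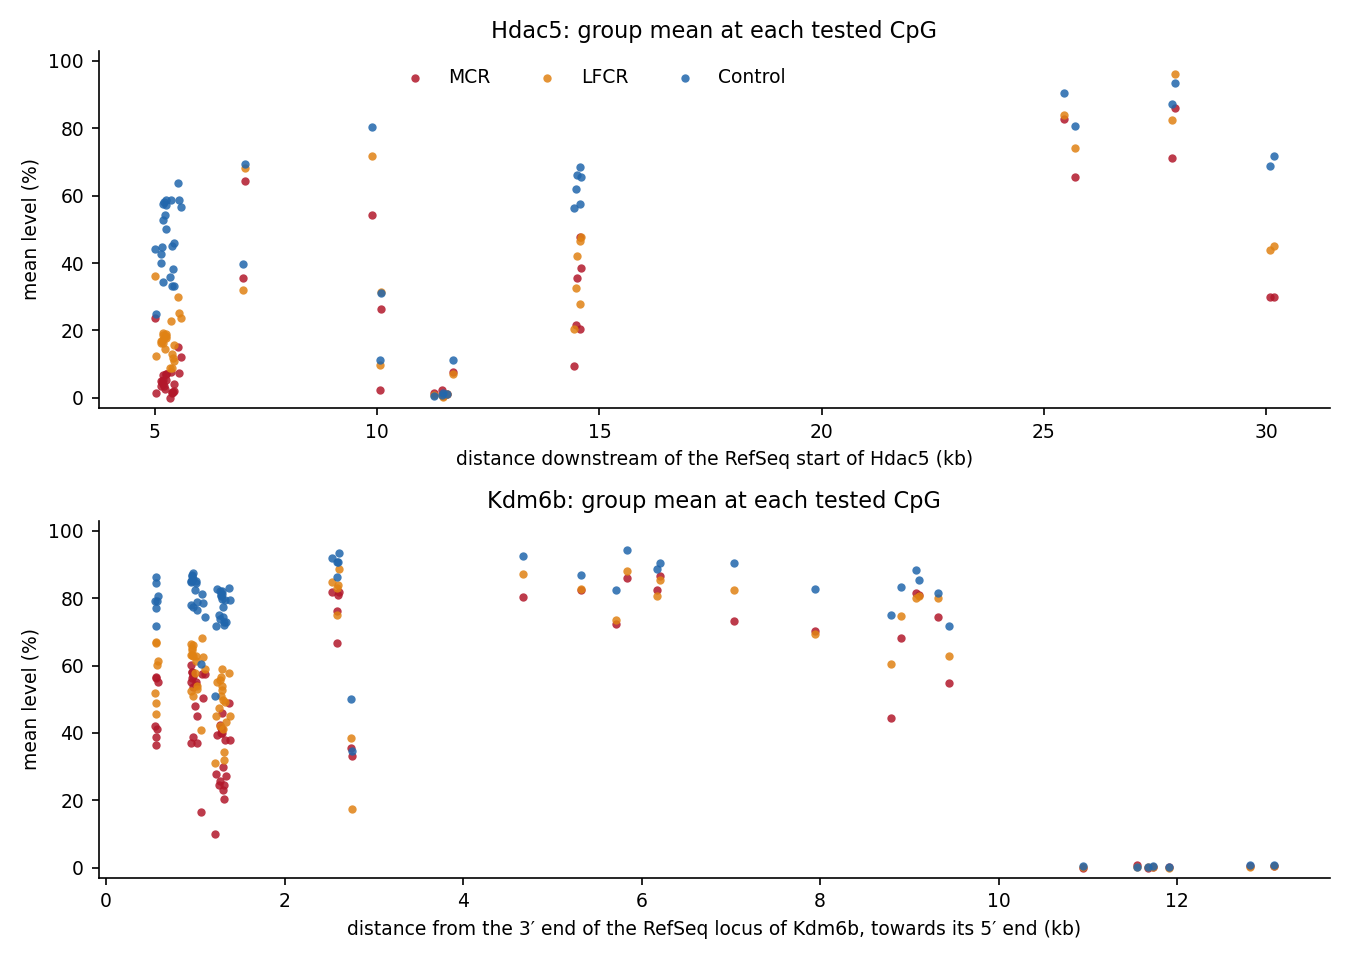
Mean methylation per tested CpG in MCR, LFCR and Control mice, in percent, against the distance in kb downstream of the RefSeq start of Hdac5 and from the 3′ end of the Kdm6b locus. The MCR and Control points lie well apart in Hdac5 at 4.99 to 5.60 kb, 9.87 kb, 14.4 to 14.6 kb and 30.1 to 30.2 kb. They also lie well apart near the 3′ end of Kdm6b. They lie close together at the 1st exon sites of Hdac5 at 11.3 to 11.7 kb, which average 2.66% in MCR mice and 3.07% in Control mice.

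Hdac7 showed both directions within 1 gene. Its 4 promoter CpGs lay outside CpG islands at chr15:97807979-97808080. This is inside the RefSeq locus (chr15:97792661-97844502) and near neither of its ends. These 4 CpGs were highly methylated, with 80.2%, 74.9% and 80.8% in MCR mice, 77.3%, 81.3%, 81.6% and 85.2% in LFCR mice and 85.0% to 92.1% in Control mice. The groups of MCR and Control did not overlap, and the difference was −10.7 points (SE 2.04, adjusted p = 0.000650; −3.22 points relative to the shift, not called). A neighbouring stretch of 19 CpGs at chr15:97807951-97809385, which includes these 4, averaged 77.3% in MCR mice and 90.7% in Control mice. In it 12 CpGs were called lower, beside 33.6% of all CpGs. Further into the table's body annotation, 5 CpGs at chr15:97821193-97821611 went the other way and averaged 21.4% in MCR mice and 9.69% in Control mice. Of these 5, 3 were called higher, beside 4.66% of all CpGs. The CpG chr15:97822334 of Hdac7 had 61.4%, 73.0% and 64.4% in MCR mice and 29.1%, 15.6%, 36.5%, 41.2% and 35.8% in Control mice, a difference of 34.6 points (SE 6.78). At chr15:97817526, also in Hdac7, the MCR mice had 65.8%, 70.3% and 85.3% and averaged 28.9 points above the Control mice (SE 4.20). Neither of these Hdac7 sites had overlapping MCR and Control mice. Each was the only CpG called in its stretch. The 9 CpGs at chr15:97822251-97822645 averaged 6.88 points higher in MCR than in Control mice. The 6 CpGs at chr15:97817496-97817745 averaged 5.25 points higher. Over both stretches the MCR and Control mice overlapped, so these 2 larger gains were at single sites.

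Over all member CpGs, 10 were called higher in MCR mice, 1.75% of the 571 against 4.66% of all CpGs, and all 10 lay in gene bodies. Of these, 6 were in Hdac7, and the rest were in Setd4, Kdm4b, Kdm4a and Sirt2. The one with the largest difference was chr7:28788023 in Sirt2, a mostly cytoplasmic deacetylase, with 94.9%, 100% and 100% in MCR mice and 62.5%, 51.2%, 61.2%, 66.7% and 74.4% in Control mice (35.1 points, SE 8.81, adjusted p = 0.00594). LFCR mice at this site had 100%, 87.9%, 52.9% and 61.9%, so that mice 63 and 67 were above every Control mouse and mice 69 and 72 were not. The Setd4 site, chr16:93585466, rested on groups that overlapped (34.5%, 85.7% and 75% in MCR mice, 20% to 50% in Control mice, adjusted p = 0.0425), and its call was lost without MCR mouse 95 or 96 or Control mouse 1, 2, 5 or 13, while its difference was 17.2 to 42.8 points over all fits that left out 1 mouse.

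The remaining deacetylases followed the general shift or were near 0. Hdac1, a nuclear class I enzyme of corepressor complexes, had a body level of 64.2%, 67.3% and 69.9% in MCR mice and 71.4% to 77.0% in Control mice (−8.16 points, SE 1.70, adjusted p = 0.000965; −0.693 relative to the shift). Hdac10, a class IIb enzyme known as a polyamine deacetylase, was lower in its body (−7.29 points, SE 1.92, adjusted p = 0.00415; 0.173 relative to the shift) and had the promoter unit of lowest Control level among the 10, at 0.716% ± 0.535 in MCR mice (n = 3) and 0.436% ± 0.495 in Control mice (SD, n = 5).

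The lysine demethylases had 4 of 6 units lower in MCR mice and 3 of 6 in LFCR mice, in 5 of the 16 genes listed for the class, with median differences from Control of −10.1 points in MCR mice and −6.14 points in LFCR mice. Of all units, 56.3% were lower in MCR mice and 36.6% in LFCR mice, with medians of −6.69 points in MCR mice and −4.18 points in LFCR mice. Kdm6b, a demethylase of the repressive mark H3K27me3, had the largest change of the class. Its body level was 52.0%, 47.0% and 50.5% in MCR mice, 48.2%, 50.5%, 56.4% and 59.3% in LFCR mice, and 48.0%, 61.7% and 57.1% in LFD mice. It was 54.7% to 60.6% in ICR mice, 59.7% in the Obese mouse and 61.8% to 67.8% in Control mice. All mice with past obesity lay below all Control mice. MCR mice differed from Control mice by −14.7 points (SE 2.83, adjusted p = 0.000654) and LFCR mice by −10.9 points (SE 2.60, adjusted p = 0.0123).

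Much of this change in Kdm6b lay at the 3′ end of the gene, in a stretch again delimited after its values were seen. The stretch chr11:69399053-69399895 held 44 tested CpGs, 38 in the 3′UTR and 6 in the body, with a median average coverage of 163 reads. Its level was 44.5%, 41.6% and 40.1% in MCR mice, 37.2%, 44.8%, 64.5% and 69.7% in LFCR mice, and 82.7%, 85.4%, 75%, 73.8% and 77.3% in Control mice. All 44 CpGs were called lower in MCR mice and 37 in LFCR mice. Of all 3′UTR CpGs, 37.7% were called lower in MCR mice and 14.8% in LFCR mice. The 44 CpGs are neighbours in a single stretch and not separate loci. LFD mice had 51.4%, 70.8% and 64.1%, ICR mice 56.4% to 70.9% and the Obese mouse 71.2%, all below the Control mice, with LFD mouse 42 nearest to the MCR mice. At chr11:69399830, the Kdm6b CpG with the largest difference, methylation averaged 20.5% in MCR mice and 73.0% in Control mice (−52.5 points).

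These Kdm6b sites made up most of the members' 3′UTR result. Of the 56 member CpGs in 3′UTRs, 43, of which 38 are the sites in Kdm6b, were called lower in MCR mice, 76.8% against 37.7% of all 3′UTR CpGs, with a median difference of −29.6 points against −8.89 over all 3′UTR CpGs. Among promoter CpGs 25 of 88 were lower (28.4%, against 25.7% of all promoter CpGs), among body CpGs 147 of 427 (34.4%, against 35.3%), and among body CpGs in islands 15 of 62 (24.2%, against 25.8%). Together 215 of the 571 member CpGs were lower (37.7%, against 33.6% of all CpGs). Hdac5 and Kdm6b, singled out after their values were seen, had 93 of 117 CpGs lower in MCR mice, and the other 35 genes had 122 of 454 (26.9%). Since these 2 genes were singled out for their values, the share of the rest is not set against that of the whole table.

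**Figure D3:**
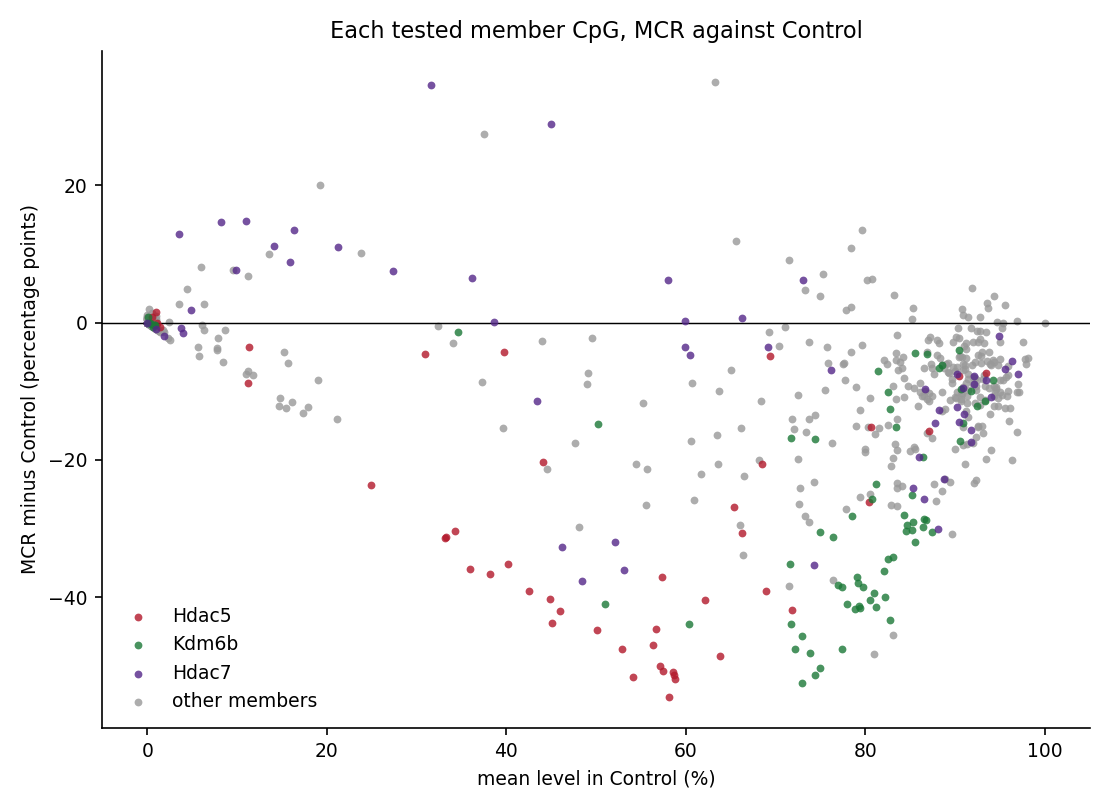
Difference of MCR from Control mice, in percentage points, against the mean level in Control mice, in percent, for the 571 tested member CpGs, with Hdac5, Kdm6b and Hdac7 marked. Most sites near 0% in Control mice stay near 0, the lowest points belong to Hdac5 and Kdm6b, and 6 of the 10 sites called higher belong to Hdac7. Among these 6 is chr15:97821557, with 3.59% in Control mice and 16.4% in MCR mice.

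The other 13 genes with a tested CpG had too few for a unit, with 1 to 6 tested CpGs each. Among them only the 3′UTR site of Hdac4 was called. The sites of Kdm1a, Kdm2a, Kdm7a, Hdac11, Kmt5b and Setd6 were nearly unmethylated, with no gene's mean above 1.15% in either MCR or Control mice. The single body site of Kdm8 averaged 34.3% in MCR mice and 55.7% in Control mice with no call.

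The Control level of a site went with its call. Of the member CpGs under 10% in Control mice, 1 of 115 was lower in MCR mice (0.870%, against 1.28% of all such CpGs). The shares were 22 of 59 at 10% to 50% (37.3%, against 31.1%), 139 of 246 at 50% to 90% (56.5%, against 47.8%) and 53 of 151 over 90% (35.1%, against 30.2%). The members thus followed the table in being called most often at intermediate levels.

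Kdm4b and Kdm4a encode demethylases of H3K9 and H3K36 methylation. The body of Kdm4b had 59.7%, 64.5% and 58.8% in MCR mice, 61.2%, 63.2%, 66.4% and 72.1% in LFCR mice and 72.4% to 75.8% in Control mice, and neither diet group overlapped with Control. The difference was −13.6 points in MCR mice (SE 2.42, adjusted p = 0.000558) and −8.87 points in LFCR mice (SE 2.23, adjusted p = 0.0129). The body of Kdm4a was lower by less and with overlap, at 75.5%, 83.1% and 73.4% in MCR mice and 81.6% to 90.4% in Control mice (−9.37 points, SE 2.95, adjusted p = 0.0118), a call that was lost without MCR mouse 85 (−8.44 points) or 96 (−7.37 points). Kdm2b encodes an H3K36 demethylase that also brings Polycomb complexes to CpG islands. Its body had 65.4%, 61.3% and 65.6% in MCR mice and 69.1% to 79.3% in the 4 Control mice with a value (−10.7 points, SE 2.53, adjusted p = 0.00225), and its promoter 75%, 70.3% and 71.0% in MCR mice and 76.2% ± 2.71 in Control mice (SD, n = 4), with no call (−4.08 points, and 3.31 relative to the shift). The 4 body CpGs of Kdm5b, an H3K4 demethylase, were near 0, with 2.19% ± 3.80 in MCR mice (n = 3) and 4.32% ± 5.00 in the 3 Control mice with a value (SD), and were not called.

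**Figure D4:**
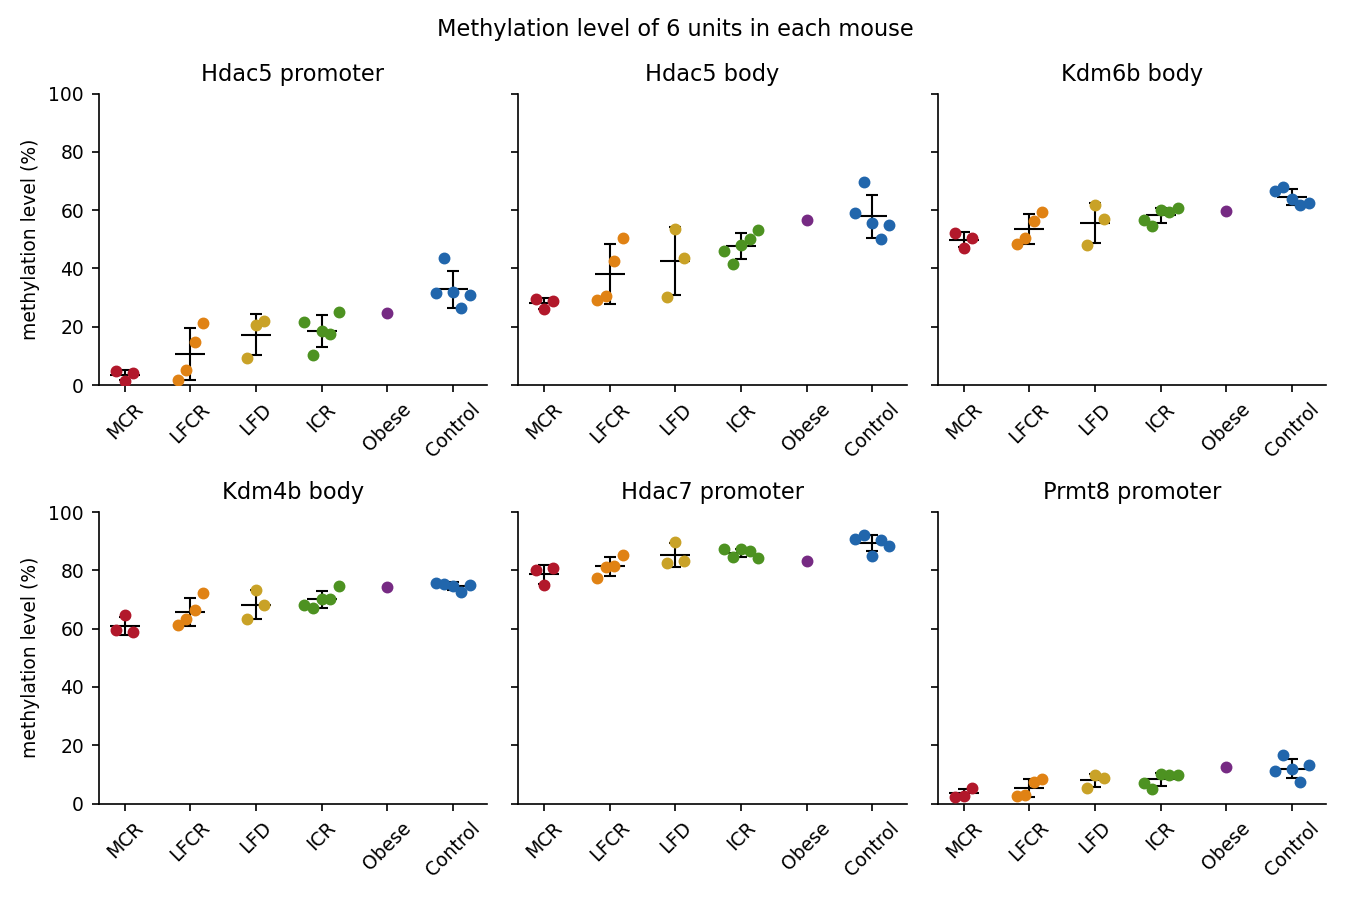
Methylation level per mouse, in percent, of 6 units by group, with points for mice and bars for the mean ± SD. In the promoter of Hdac5 the MCR mice lie between 1.44% and 4.70% and the Control mice between 26.5% and 43.6%, and the LFCR mice spread between these groups in most panels.

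The H3K4 methyltransferases, which mark active promoters and enhancers, had 6 of 9 units lower in MCR mice and 2 of 9 in LFCR mice, in 6 of 8 listed genes, with median differences from Control of −6.90 points in MCR mice and −1.95 points in LFCR mice, beside −6.69 points in MCR mice and −4.18 points in LFCR mice over all units (56.3% and 36.6% of which were lower). The body of Kmt2d, which encodes an enhancer methyltransferase, had 63.5%, 63.0% and 64.9% in MCR mice, 64.1%, 64.9%, 71.0% and 71.9% in LFCR mice and 71.3% to 76.8% in Control mice (MCR −10.2 points, SE 2.00, adjusted p = 0.000737). Within it, 8 CpGs at chr15:98845717-98846542 averaged 59.0% in MCR mice and 79.0% in Control mice. Its relative Kmt2b was lower in its body (−8.96 points, SE 1.75, adjusted p = 0.000702) and in its highly methylated promoter CpGs, where 74.6% ± 1.08 in MCR mice (n = 3) stood against 81.5% ± 1.63 in Control mice (SD, n = 5; −6.90 points, adjusted p = 0.00104, but 0.562 relative to the shift). The bodies of Setd1a (−7.98 points), Kmt2a (−7.31) and Setd1b (−6.50) were also called, of which Kmt2a and Setd1b did not stay below 0 relative to the shift. Kmt2c was nearly unmethylated at all its 7 sites, with a promoter level of 0.226% ± 0.225 in MCR mice (n = 3) and 0.682% ± 0.963 in Control mice (SD, n = 5). The promoter of Setd1a mixed unmethylated and methylated sites and averaged 49.2% ± 2.80 in MCR mice and 49.2% ± 2.52 in Control mice (−0.0219 points, 95% confidence interval −5.48 to 5.43).

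Of the other lysine methyltransferases only Ehmt2 and Setd4 had units, and 1 of 3 was lower in MCR mice (56.3% of all units) and in LFCR mice (36.6% of all units). Ehmt2, an H3K9 methyltransferase, had a nearly unmethylated stretch of 3 promoter and 6 body CpGs (chr17:34898588-34899436, with 0.171% in MCR mice and 0.518% in Control mice over these 9) and a highly methylated stretch of 9 promoter CpGs and 1 body CpG (chr17:34904948-34905731, with 82.1% in MCR mice and 90.8% in Control mice). The whole promoter unit differed by −6.43 points (SE 1.34, adjusted p = 0.000960; 1.03 relative to the shift), while the body differed by −0.353 points. The body of Setd4 differed by 7.62 points (SE 5.96, adjusted p = 0.287) and its interval ran between −5.11 and 20.4 points.

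The sirtuins had 3 of 5 units lower in MCR mice (56.3% of all units) and 1 of 5 in LFCR mice (36.6% of all units). Sirt4 is mitochondrial, while Sirt6 and Sirt7 are nuclear. The body of Sirt4 had 37.4%, 51.9% and 40.5% in MCR mice, 43.5%, 44.8%, 41.4% and 65.7% in LFCR mice and 67.9%, 58.1% and 56.2% in the 3 Control mice with a value. MCR and Control did not overlap, and LFCR mouse 72 lay among the Control mice. The difference of −17.5 points (SE 6.39, adjusted p = 0.0278) was not called relative to the shift (−9.53 points, SE 5.59), and the call was lost without MCR mouse 85 (−14.6 points) or 96 (−16.1 points). The body of Sirt6 had 70.3%, 72.1% and 63.3% in MCR mice and 77.5% to 80.3% in Control mice (−10.1 points, SE 2.51, adjusted p = 0.00292), and that of Sirt7 was lower by less (−5.70 points, SE 1.94, adjusted p = 0.0183; 1.77 relative to the shift). The body of Sirt2 was not called (−4.18 points, SE 2.29, adjusted p = 0.125). The promoter of Sirt7 was nearly unmethylated, at 0.741% ± 0.334 in MCR mice (n = 3) and 0.565% ± 0.384 in Control mice (SD, n = 5).

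The arginine methyltransferases had 2 of 4 units lower in MCR mice, both of Prmt8 (56.3% of all units), and 1 of 4 in LFCR mice (36.6% of all units). The promoter of Prmt8, whose sequences are shown above, had 2.39%, 2.62% and 5.34% in MCR mice, 2.72%, 2.79%, 7.44% and 8.37% in LFCR mice, and 11.2%, 16.5%, 11.8%, 7.43% and 13.1% in Control mice. All MCR mice lay below the Control mice, and LFCR mice 69 and 72 overlapped with Control mouse 10. The difference was −8.55 points in MCR mice (SE 1.91, adjusted p = 0.00142; −1.09 relative to the shift, not called). The body of Prmt8 differed by −7.86 points in MCR mice (SE 1.53, adjusted p = 0.000757, 4 Control mice). The body of Prmt2 was highly methylated and not called (−3.03 points, 95% confidence interval −9.34 to 3.29). Prmt1, which makes most asymmetric dimethylarginine, was nearly unmethylated at its 4 body CpGs, with 0.469% ± 0.481 in MCR mice (n = 3) and 0.338% ± 0.512 in Control mice (SD, n = 5).

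In LFCR against Control, 12 of 34 units were lower (35.3%, against 36.6% of all units) and none was higher (2.55% of all units). The 5 with the largest differences were the promoter and body of Hdac5, the bodies of Kdm6b and Kdm4b and the promoter of Hdac7 (−7.96 points, SE 1.88, adjusted p = 0.0123). Promoters had 5 of 10 units lower (29% of all promoter units) and bodies 7 of 24 (40.4% of all body units), and the median difference was −3.31 points over the members and −4.18 over all units. Of the CpGs, 105 were lower (18.4%, against 12.7% of all) and 1 was higher (0.175%, against 1.58%). By region these were 17 of 88 promoter CpGs (19.3%, against 10%), 55 of 427 body CpGs (12.9%, against 13.2%) and 33 of 56 3′UTR CpGs (58.9%, against 14.8%), with 12 of 62 island CpGs in bodies (19.4%, against 12.2%). Of the 17 promoter CpGs, 11 lay in Hdac5, and of the 33 3′UTR CpGs, 31 lay in Kdm6b. Hdac5 and Kdm6b, chosen after their values were seen, held 66 of the 105, and the other members had 39 of 454 (8.59%). In 8 of 34 units every LFCR mouse lay below every Control mouse, as in 15.5% of all units.

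The LFCR calls rested on single mice. Without LFCR mouse 63 or without LFCR mouse 67, the 2 of lower methylation, no member unit and no member CpG was called in LFCR against Control. Without LFCR mouse 72 there were 16 member units and 165 member CpGs. Shares over all units and CpGs were not taken in these fits. Relative to the shift, 4 units were lower (12.6% of all units) and 6 were higher (18.1% of all units). The 4 were the promoter of Hdac5 (−17.3 points, adjusted p = 0.0124), the body of Hdac5 (−14.9, adjusted p = 0.0174), the body of Kdm6b (−6.05, adjusted p = 0.0190) and the body of Kdm4b (−3.98, adjusted p = 0.0459).

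In LFD and in ICR mice no member unit and no member CpG was called against Control (limma), and none of the whole table was either (0% of units and of CpGs in both comparisons). At an unadjusted p under 0.05 (limma) there were 12 of 34 member units and 131 of 571 member CpGs in LFD mice. Over the whole table these were 2362 of 8133 units and 24244 of 126006 CpGs. In ICR mice there were 7 of 34 member units and 87 of 571 member CpGs, beside 1411 units and 16348 CpGs of the whole table. The median difference of the members' units was −3.45 points in LFD mice and −1.69 points in ICR mice, beside −2.88 points in LFD mice and −2.001 points in ICR mice over all units. The 3 member units of smallest p in LFD mice were the promoter of Hdac5 (−15.6 points, 95% confidence interval −25.1 to −6.12), the body of Setd1a (−5.17 points, SE 1.56) and the body of Kdm6b (−8.93 points, SE 2.83). Those in ICR mice were the promoter of Hdac5 (−14.3 points, 95% confidence interval −22.5 to −6.10), the body of Kdm6b (−6.30 points, SE 2.45) and the body of Hdac10 (−4.25 points, SE 1.67). The LFD, ICR, LFCR and MCR values all share the 5 Control mice, so these comparisons are not independent of each other. Every LFD mouse lay below every Control mouse in 5 of 34 units and every ICR mouse in 2 of 34, as in 15.3% and 6.15% of all units.

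Between the diets no unit passed the test in MCR against LFCR, in LFCR against LFD or in LFCR against ICR (0% of all units in each, limma). At an unadjusted p under 0.05 (limma) there were 9, 1 and 3 of 34 member units, beside 1045, 380 and 880 of all 8133 units. The promoter of Hdac5 differed by −7.32 points in MCR against LFCR mice, with a 95% confidence interval of −17.2 to 2.58 points. The member unit of smallest p there was the body of Setd1a (−5.64 points, interval −9.10 to −2.19), followed by the promoter of Kmt2b (−5.02) and the body of Hdac1 (−5.58). In LFCR against LFD mice these were the body of Ehmt2 (2.11 points), the promoter of Kdm2b (−4.87) and the promoter of Hdac7 (−3.89), and in LFCR against ICR mice the body of Hdac7 (−2.86), the promoter of Hdac7 (−4.63) and the body of Sirt4 (−11.2). A missing call here does not show that the diets acted alike.

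Genes of the same pathway outside the name patterns were read from lists. Further histone methylation genes had 9 units lower and 1 higher of 13 in MCR mice, in 10 of 33 listed genes, with a median of −7.84 points, where 56.3% of all units were lower, 4.3% were higher and the median was −6.69 points. They include the body of Nsd1 (−14.7 points), an H3K36 methyltransferase, the body of Dot1l (−14.6), the H3K79 methyltransferase, and the promoter of Prdm6 (6.10 points, higher). Partners in histone-modifying complexes had 5 of 17 units lower (median −3.10 points), among them the promoter of Zmynd8 (−35.0, SE 8.53). Histone acetyltransferases had 1 of 3 units lower, the body of Kat2a (−9.51), with a median of −0.325 points.

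Units of cell type marker genes were called lower in MCR mice in counts to be read beside the 56.3% of all units that were lower and the 4.3% that were higher. Of the units of luminal epithelial marker genes, 4 of 8 were lower and 1 higher in MCR mice, of leukocyte markers 2 of 6 lower and 2 higher, of basal epithelial markers 0 of 1, of adipocyte markers 1 of 3 lower, of endothelial markers 4 of 7 lower and 1 higher, of skeletal muscle markers 4 of 6 lower and 1 higher, and of fibroblast markers 1 of 2 lower. Averaged over promoter units measured in all 21 libraries, luminal markers (2 units) ranged between 39.3% and 44.7% in MCR mice, 44.9% and 63.6% in LFCR mice and 59.9% and 72.9% in Control mice, without overlap between MCR and Control. In 52.9% of all units every MCR mouse likewise lay below every Control mouse. Leukocyte markers (2 units) had 27.7% to 32.9% in MCR mice and 24.9% to 33.4% in Control mice. Endothelial markers (2 units) had 38.0% to 43.5% in MCR mice and 39.0% to 45.8% in Control mice. The groups overlapped in both, but each of these averages joined opposite differences that were called. Among leukocyte markers, the promoter of Coro1a differed by 24.4 points in MCR against Control and that of Zap70 by −21.5 points. Among endothelial markers, the promoter of Eng differed by 13.1 points and that of Nos3 by −16.6 points. The promoter of the adipocyte gene Cebpa was nearly unmethylated, at 0.950% to 1.48% in MCR mice and 1.74% to 2.48% in Control mice. Skeletal muscle promoters (3 units, 2 called lower and 1 higher) overlapped, at 50.7% to 52.2% in MCR mice and 49.3% to 52.0% in Control mice. The basal promoter (1 unit) overlapped too, at 11.6% to 33.6% in MCR mice and 14.9% to 22.8% in Control mice. The part of the cell mix in the results for Hdac5, Kdm6b and the other histone enzyme genes was not tested.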

How the data were processed

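RRBS data of 25 mammary fat pads were used as deposited. Reads were processed with Bismark against mm10, per the submitters' processing notes; versions, filters and strand merging are not given in the sources used here. The authors deposited the methylation level per CpG and library as a fraction of reads (0 to 1), and levels are given here in percent. The deposited coverage signal is a mean number of reads for each CpG; multiplied by 21 it was whole, within 1e-06, at 99.9% of CpGs. Reads per library are not in the table. How precise a single value is cannot be known from it, and intervals cover the spread between mice. Group columns and the authors' own comparison were not used here.

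Libraries were matched to mice by the sample titles and grouped by the labels. The members, gene lists and settings were chosen with earlier results of these data known. CpGs needed an average coverage of at least 10 reads and a value in at least 3 mice of each group but Obese. For a unit, deviations from each CpG mean were averaged per mouse and added to the mean of these CpG means; mice with values at under 0.5 of its CpGs got none. Levels were fitted with limma (version 3.58.1, R 4.3.3, data.table version 1.17.8), 1 term per group over 21 libraries, with moderated variance, two-sided, adjusted by Benjamini-Hochberg over all CpGs or all units and called at 0.05. The fit was tested on simulated data. Centring took each mouse's mean over all units or CpGs from its values. Units named are the 10 called in each direction with the largest difference in MCR against Control, 5 in LFCR against Control, the 3 of smallest p where fewer than 5 were called, and the 3 promoters of highest and of lowest Control level; CpGs are the 6 called in each direction with the largest difference. Units, stretches and other genes named beside these were chosen after their values were seen. Coordinates are those deposited (mm10); sequences and gene starts are from RefSeq tables (GRCm38.p6), in which 30 of the 37 genes had a promoter window. Python 3.11.15 with pandas 2.3.3 and matplotlib 3.10.9 prepared the tables and figures.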

Additional observations from a re-analysis of the deposited data

Results flagged for a closer look

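Of 95 group values examined for a mouse apart from its group (20 units and 12 CpGs in groups of at least 4 mice), 6 held one, or 6.32%, where chance gives about 5%. Control mouse 2 accounted for 5 of them. It was higher than the other Control mice at 2 Hdac5 CpGs, with 75.8% at chr11:102224926 against 52.8% to 57.6% and 75% at chr11:102224948 against 45.7% to 51.0%, and in the promoter of Kmt2c, with 2.38% against 0% to 0.399%. It was lower in the body of Hdac10 (61.4%, the others 64.3% to 65.5%) and in the body of Ehmt2 (49.8%, the others 50.9% to 51.2%). In the body of Sirt4, LFCR mouse 72 had 65.7% and the other LFCR mice 41.4% to 44.8%.

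The 4 libraries set aside were partly methylated where Control mice were not. At member CpGs under 5% in Control mice the mean level was 52.0% in Obese mouse 27, 51.0% in Obese mouse 28, 48.8% in Obese mouse 40 and 51.0% in LFD mouse 46, against 0.534% to 0.999% in the Control mice. Their Hdac5 promoter levels were 43.4% to 53.7%.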

How the results depend on the processing

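No paired analysis was possible because the groups compared share no mouse number. Calls among member units in MCR against Control (22, all lower) were 12 with each mouse centred, of which 5 were lower and 7 higher. They were 12 with all 25 libraries, 14 with at least 10 CpGs per unit, and 19 to 23 without 1 mouse. CpG calls (215 lower, 10 higher) were 193 to 234 without 1 mouse. In LFCR against Control, unit calls (12) were 2 with all 25 libraries, 7 with promoters without the 1st exon, 0 with a fit of these 2 groups alone, and 0 to 16 without 1 mouse. CpG calls (106) were 68 when centred (61 lower, 7 higher), 0 with the 2 groups alone and 0 to 165 without 1 mouse: 0 without LFCR mouse 63 or 67, 23 without Control mouse 2, 62 without Control mouse 1. LFD unit calls (0) were 0 to 3 without 1 mouse, 3 without LFD mouse 47. When centred, 15 of the 34 member units turned from lower to higher in MCR against Control. Among the units of the naming rule these were the promoters of Kdm2b (3.31), Kmt2b (0.562) and Kmt2c (7.01, limma, adjusted p = 0.00110). The promoter of Kmt2c was near 0% in both groups and could not fall with the shift. Signs also turned without MCR mouse 95 at the promoter of Hdac10 (−0.0285, and up to 0.444 without the others), and in LFCR against LFD with all 25 libraries in the body of Ehmt2 (−3.94). The causes were not tested. Under these other settings, apart from units with each mouse centred, shares over all units or CpGs were not taken. Over 47 results named by the rule, 424 values kept their sign and side of the threshold under the other settings, 16 lost the call, 2 gained it and 4 turned sign; without 1 mouse 360 kept both, 22 lost the call, 1 gained it and 1 turned sign. Depth per library is unknown, and with 3 to 5 mice per group and 1 Obese library small differences cannot be resolved.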
